A study of Mus musculus with 15 samples.

Results

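The proteasome genes of aged mouse gastrocnemius were examined in RNA from 15 female mice. The members were the protein-coding genes whose symbol starts with Psma to Psmg followed by a digit, with a mean of at least 10 counts over the mice. The pattern matched 50 symbols, and 48 of the 55450 counted genes met both conditions. Psma8, a core subunit of the testis, had a mean of 1.93 counts, and Psmb11, a core subunit of the thymus, a mean of 0.933, so neither was included. All 48 members were among the 16920 genes that passed edgeR's filter on low counts and were tested. They comprised 14 core genes (7 alpha and 7 beta), 17 genes of the regulatory cap (6 ATPases and 11 other subunits), 5 genes of the immunoproteasome, 7 assembly genes and 4 other activators or inhibitors. The remaining member, Psmc3ip, encodes a meiotic recombination factor and is no proteasome subunit, although its symbol matches.

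The study asked whether frailty alters how muscle responds to downhill running. The C57BL/6JN mice were older than 17 months, and their labels call them robust or frail, which the study names Low (at most 1 positive frailty marker) and High (at least 2). All groups were of this strain, and marker cut-offs were percentiles within the study's own cohort, so frailty is relative to it. Control mice stayed in their cages. Run mice ran downhill (22 degrees, 13 m/min) in 2 bouts, and their gastrocnemius was taken 24 h later. There were 4 Low Control mice (D8, D9, D11 and D98), 4 Low Run mice (D57, D61, D66 and D68), 3 High Control mice (D23, D25 and D67) and 4 High Run mice (D49, D52, D53 and D62). Each library came from 1 mouse.

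The proteasome is the protease that degrades ubiquitin-tagged proteins in the cytosol and nucleus. Its barrel-shaped core holds the catalytic sites, and the cap binds, unfolds and threads substrates into it. Interferon gamma induces alternative catalytic subunits and the PA28 activator, and the core that carries these subunits, the immunoproteasome, favours peptides for presentation to T cells. In skeletal muscle the proteasome is best known for the breakdown of contractile proteins during atrophy and for the turnover of damaged proteins after exercise.

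The libraries held 19395125 to 30699216 counts, of which the members took between 0.45% and 0.798%. The 8 muscle fibre markers, including Ckm and Acta1, summed to between 111000 and 175000 CPM in the 15 mice, so the tissue matched its label. CPM scale each count by its library's total, with edgeR's TMM factors for library composition. Low Control mouse D9 stood apart from every other mouse in most members. Values without it are given for many results but not for all, and Low Control values otherwise include it.

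No member passed an FDR of 0.1 in any comparison by edgeR's quasi-likelihood test, and no other gene did (0.0% called in each comparison). DESeq2 also called 0 of the 48 members, against 0.0374% of all genes in the Low, 0.0934% in the High and 0.0% in the other comparisons. Differences are therefore given by size, standard error (SE) and spread, and an unadjusted p under 0.05 is used below only to count members, beside the share of all tested genes that reached it.

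Per kilobase of merged exons, core genes ranged from 10.6 CPM (Psma3) to 109 CPM (Psma6), a 10.3-fold span among subunits that sit in equal copies in each core. Cap genes ranged from 24.5 CPM per kilobase (Psmd11) to 124 CPM per kilobase (Psmc5). The immunoproteasome genes were far below both, from 1.43 CPM per kilobase (Psmb9) to 12.1 (Psme1), with a median of 3.6 against 36.4 for the core and 61.6 for the cap. Assembly genes, whose products help to build the complex, ranged from 2.08 CPM per kilobase (Psmg3) to 13.1 (Psmg2). The order within a class depended on the gene length used. With the length of 1 coding transcript per gene the core spanned 19.1-fold, from Psma5 to Psmb7, and the cap 3.77-fold.

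**Figure D1:**
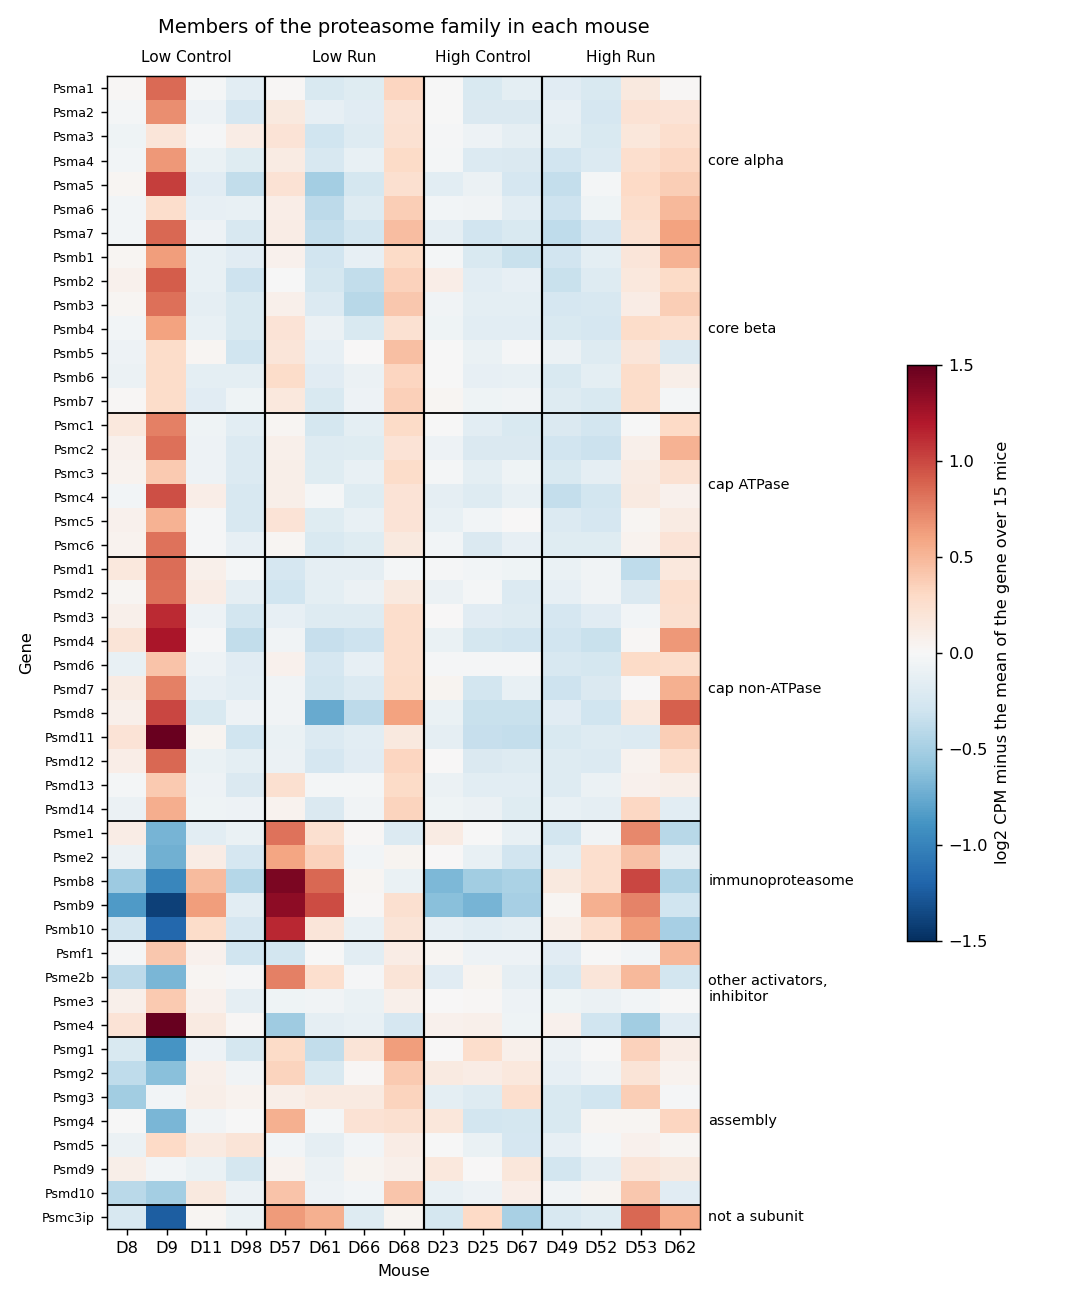
Each row is 1 member, grouped by class, and each column 1 mouse. Colour gives log2 CPM minus the mean of that gene over the 15 mice, and colours saturate at 1.5 in either direction. Mouse D9 is red across the core and cap rows and blue across the immunoproteasome rows, while D57 is the reddest mouse for the immunoproteasome.

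The core and cap genes mostly moved together from mouse to mouse. Averaged over the 31 genes, log2 CPM relative to each gene's mean over the mice was highest in D9, at 0.713, and ranged from -0.239 (D61) to 0.28 (D68) in the Low Run mice. Low Control mouse D9 had the highest level of the 15 mice in 26 of the 31 genes and of its own group in all 31. The spread of this average within a group was 0.403 (SD) among the 4 Low Controls, 0.237 among the 4 Low Runs, 0.0689 among the 3 High Controls and 0.244 among the 4 High Runs. Low Run mouse D68 was highest of its group in 30 of the 31 genes, and High Run mouse D62 in 22. Core and cap parted in High Run mouse D53, where the average was 0.217 over the core and 0.027 over the cap. In Low Run mouse D57 the values were 0.133 and -0.008.

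The catalytic core genes varied less. Psmb5, the chymotrypsin-like subunit (GRCm38 chr14:54614119-54618022, minus strand), was at 77.6, 99.3, 83.7 and 66.2 CPM in Low Control mice D8, D9, D11 and D98, and at 92.5, 74.7, 81.9 and 111 CPM in Low Run mice D57, D61, D66 and D68. It was at 81.5, 76.1 and 81 CPM in High Control mice D23, D25 and D67, and at 77.2, 71.2, 92.6 and 70.3 CPM in High Run mice D49, D52, D53 and D62. All groups overlapped, and D68 rather than D9 was highest. Psmb6, the caspase-like subunit, averaged 137 ± 20.7, 148 ± 25.8, 131 ± 6.09 and 139 ± 22.5 CPM (mean ± SD) in the order Low Control, Low Run, then High Control, High Run. Psmb7, the trypsin-like subunit, averaged 295 ± 39.7, 305 ± 53.9, 285 ± 10.2 and 285 ± 47.5 CPM in the same order. For each of these genes all 4 groups overlapped. Part of the Psmb5 exons, 12.1% of their length, overlaps the microRNA gene Mir686 on the same strand.

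Of the core and cap genes, those of the cap were raised more in D9. Psmd11, a non-ATPase subunit that holds the cap to the core (chr11:80428615-80473248), was at 169, 410, 152 and 120 CPM in Low Control mice D8, D9, D11 and D98, and at 137, 128, 131 and 163 CPM in Low Run mice D57, D61, D66 and D68. In High Control mice D23, D25 and D67 it was at 135, 116 and 115 CPM, and in High Run mice D49, D52, D53 and D62 at 125, 129, 127 and 190 CPM. D9 exceeded the median of the other 14 mice 3.16-fold, and D62 was the second highest mouse. Psmd4, a ubiquitin receptor, was at 502 CPM in D9, against 167 to 246 CPM in the other Low Controls and 336 CPM in D62. Psmd8, a lid subunit, was at 476 CPM in D9 and 444 CPM in D62, against 141 CPM in D61, the lowest mouse. The ATPases Psmc1 to Psmc6, which unfold substrates, had a median ratio of 1.84 in D9 and were all highest there. Over the 17 cap genes this ratio ran from 1.36 (Psmd13) to 3.16 with a median of 1.86, and over the 14 core genes from 1.17 (Psma3) to 2.23 (Psma5) with a median of 1.68.

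**Figure D2:**
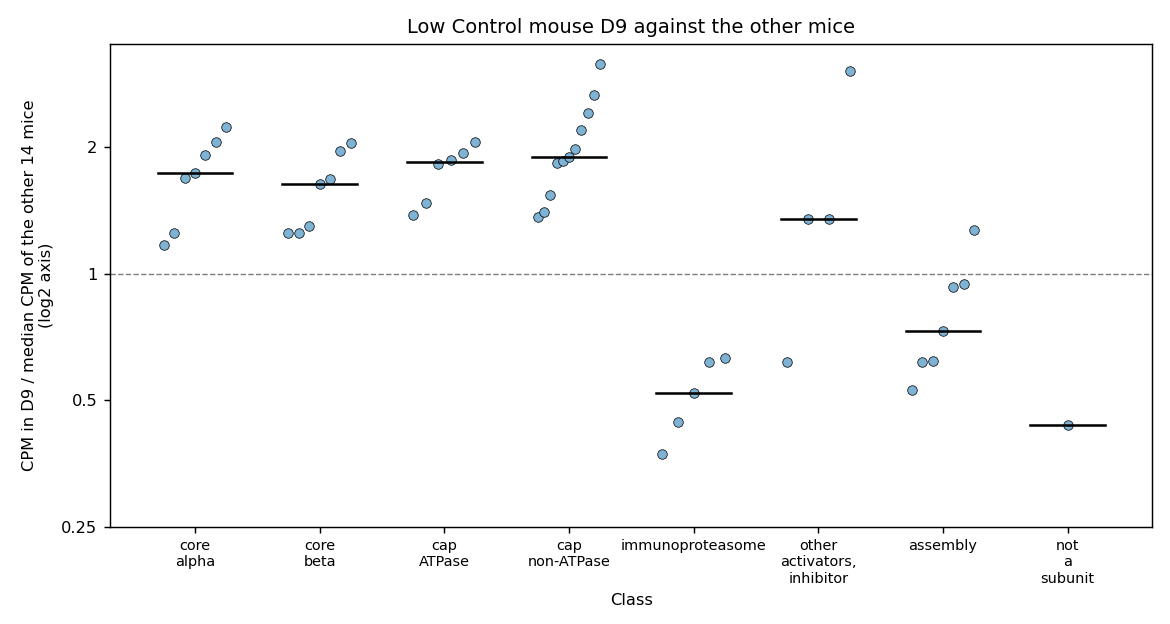
Each point is 1 member, and the vertical axis, on a log2 scale, is CPM in Low Control mouse D9 divided by the median CPM of the other 14 mice. Black lines are class medians and the dashed line marks a ratio of 1. All core and cap points lie above 1, from 1.17 to 3.16, and all immunoproteasome points below it, from 0.372 to 0.63.

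Promoter sequence was compared because the core and cap genes mostly moved together. NRF1 and NRF2, the products of Nfe2l1 and Nfe2l2, are also known to act on proteasome genes through antioxidant response elements. The 250 bases upstream of each start in RefSeq (GRCm38.p6) were available for 41 of the 48 members and searched on both strands for the core of that element, TGACNNNGC. It occurred in 5 of 41 members (Psmb5, Psmb6, Psmc6, Psmd12 and Psmd9), or 12.2%, against 11.5% of 27025 genes. Among the 25 core and cap genes with a window it occurred in 4, or 16%. Psmb5 and Psmb6 are shown as catalytic genes that hold a match, in capitals, and Psmd11 as the member with the largest ratio in D9, which holds none. Bases inside annotated exons were left out. The windows are chr14:54618023-54618245 (minus strand), chr11:70525107-70525356 and chr11:80428365-80428614 (both plus strand), each written 5′ to 3′ along the gene.
Psmb5: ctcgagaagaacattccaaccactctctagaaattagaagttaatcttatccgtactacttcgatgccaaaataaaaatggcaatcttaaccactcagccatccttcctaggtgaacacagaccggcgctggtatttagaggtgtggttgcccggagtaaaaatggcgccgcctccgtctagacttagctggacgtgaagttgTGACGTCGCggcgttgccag
Psmb6: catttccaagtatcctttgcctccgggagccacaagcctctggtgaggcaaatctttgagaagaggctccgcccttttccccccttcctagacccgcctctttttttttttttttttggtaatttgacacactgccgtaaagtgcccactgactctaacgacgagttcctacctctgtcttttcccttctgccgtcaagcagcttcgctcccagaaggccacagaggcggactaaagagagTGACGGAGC
Psmd11: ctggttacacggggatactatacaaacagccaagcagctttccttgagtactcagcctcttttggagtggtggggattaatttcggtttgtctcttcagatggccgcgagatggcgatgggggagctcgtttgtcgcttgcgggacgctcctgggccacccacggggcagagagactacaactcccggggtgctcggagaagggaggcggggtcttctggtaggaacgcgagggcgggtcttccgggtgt
The match lay 47 to 39 bases upstream of the start of Psmb5 and 9 to 1 bases upstream of that of Psmb6. In D9 the holders Psmb5, Psmb6, Psmc6, Psmd12 and Psmd9 were at 1.25, 1.3, 1.86, 1.98 and 0.944 times the median of the other mice.

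In the Low comparison, which asked how running altered muscle of Low mice, the core and cap gave small differences that turned with D9. Of the 31 genes, 27 were lower in Low Run than in Low Control mice, with a median log2 fold change of -0.10 in the core and -0.25 in the cap, against 0.02 over all genes tested. Without D9, 22 of the 31 were higher, and the medians were 0.11 and 0.01. Psmd1, a scaffold subunit of the cap, was the only core or cap gene with an unadjusted p under 0.05, which 13.4% of all genes reached (log2 fold change -0.44, SE 0.17, adjusted p = 0.358). Its log2 fold change was -0.22 without D9. Psmd11 gave -0.61 (SE 0.29, adjusted p = 0.374), and -0.08 without D9.

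In the High comparison the core and cap were slightly higher after running. Of the 31 genes, 27 were higher in High Run than in High Control mice, with a median of 0.15 in the core and 0.10 in the cap, against 0.05 over all genes. None had an unadjusted p under 0.05, against 5.18% of all genes. Psmd8 gave the largest difference, 0.48 (SE 0.35, adjusted p = 0.958), which was 0.15 without D62, the High Run mouse in which it was highest. Without D9 and D62, 18 of the 31 were higher and the medians were 0.06 and -0.01. Psmb1, a core beta subunit, gave 0.29 (SE 0.22, adjusted p = 0.958) with all mice.

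The Frailty × Run interaction compares the response to running of High and Low mice, and it was positive for 28 of the 31 core and cap genes. Its median was 0.28 in the core and 0.39 in the cap on the log2 scale, against 0.03 over all genes. Psmd11 gave 0.84 (SE 0.43), Psmd8 0.82 (SE 0.48) and Psmd4 0.77 (SE 0.44), with adjusted p from 0.6 to 0.608. Without D9 these values were 0.31, 0.47 and 0.34, and without D9 and D62 they were 0.14, 0.15 and 0.07. No member had an unadjusted p under 0.05, against 7.93% of all genes. Without D9 the medians were 0.03 and 0.11, and without D9 and D62 they were -0.04 and -0.04, with 20 of the 31 genes negative.

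Between sedentary groups, all 31 core and cap genes were lower in High Control than in Low Control mice, with a median of -0.31 against -0.02 over all genes. Psmd11 was the only member with an unadjusted p under 0.05 (-0.81, SE 0.32, adjusted p = 0.704), against 5.86% of all genes. Without D9 the median over the 31 genes was -0.05, and Psmd11 gave -0.28. The groups overlapped for all 31 genes, and 5.27% of all genes were lower in High Control mice without overlap. Psme4 gave -0.59 (SE 0.29), and -0.10 without D9. Psmd5 gave -0.26 (SE 0.13), and -0.21 without D9. Between the running groups the median over these genes was 0.02, and no member had an unadjusted p under 0.05 (2.51% of all genes). The smallest p belonged to Psmb5 (-0.21, SE 0.15), Psme2b (-0.25, SE 0.21), Psmb9 (-0.43, SE 0.38), Psmd13 (-0.15, SE 0.14) and Psmg3 (-0.20, SE 0.18).

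**Figure D3:**
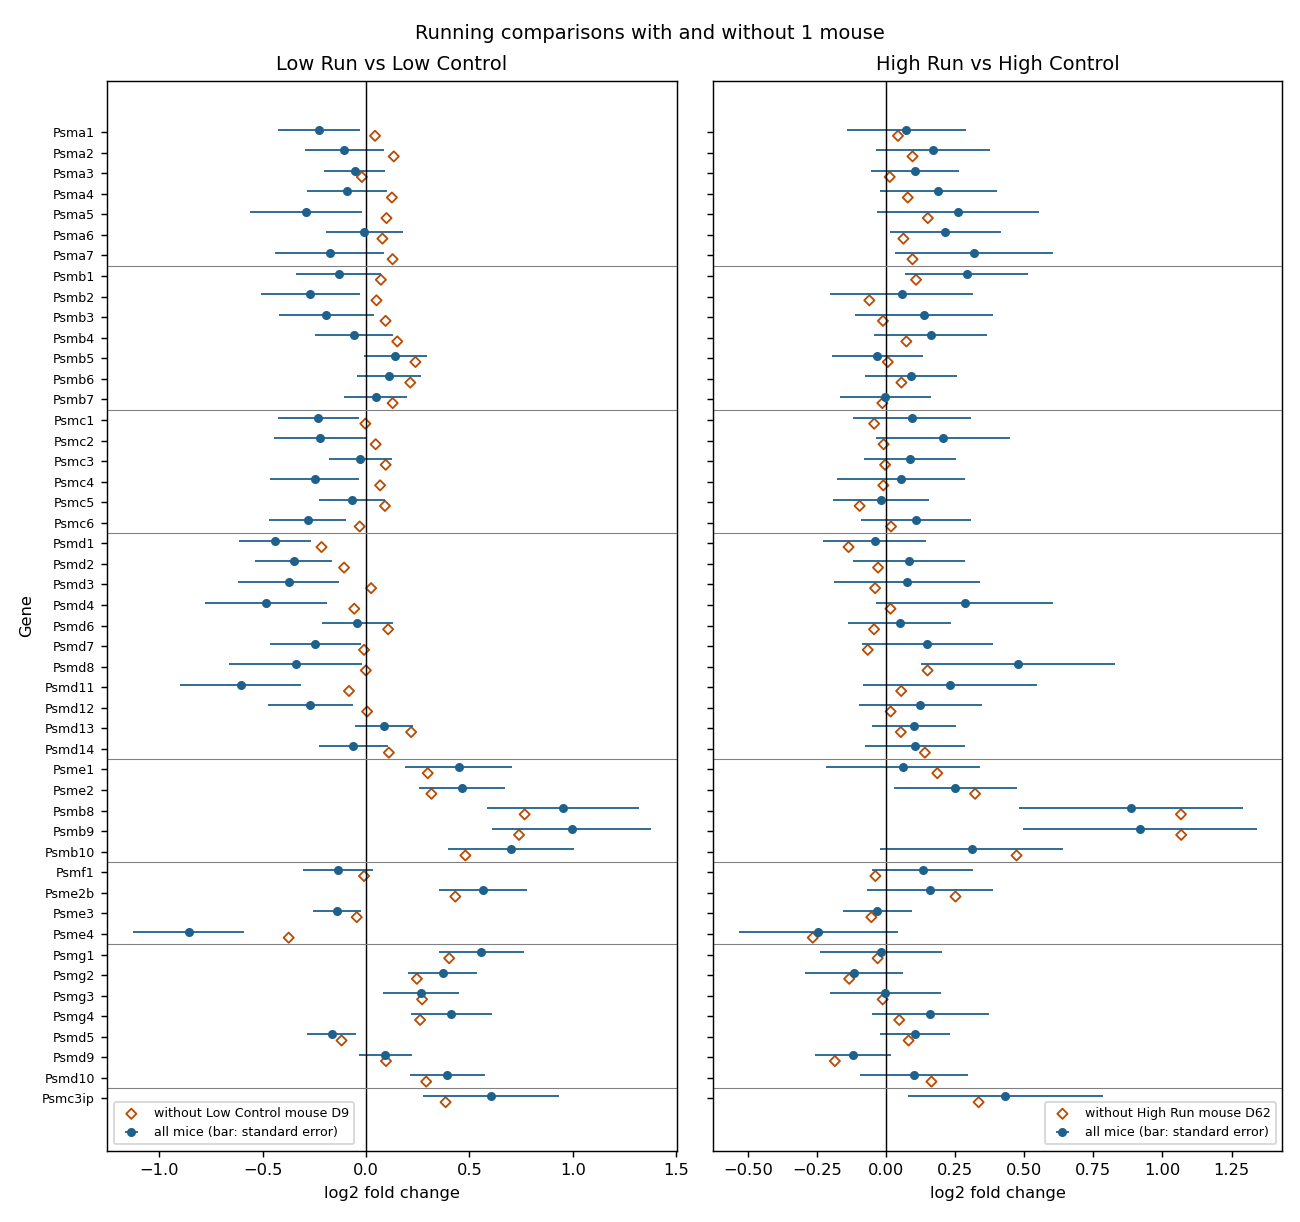
Filled points are log2 fold changes of the 48 members with all mice, with bars of 1 standard error, for the Low comparison (left) and the High comparison (right). Open diamonds give the value without D9 (left) or without D62 (right). On the left the core and cap diamonds lie to the right of the points, and for the immunoproteasome they lie to the left but above 0.

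The immunoproteasome genes were on average higher after running in both frailty groups, by values that did not pass the test. Psmb8, the inducible counterpart of Psmb5 (chr17:34197721-34201454), was at 6.55, 4.84, 13.2 and 7.06 CPM in Low Control mice D8, D9, D11 and D98, and at 25.3, 17.4, 9.72 and 8.87 CPM in Low Run mice D57, D61, D66 and D68. It was at 5.99, 6.61 and 6.85 CPM in High Control mice D23, D25 and D67, and at 10.5, 11.3, 19.1 and 6.96 CPM in High Run mice D49, D52, D53 and D62. The Low groups overlapped through D11, and every High Run mouse exceeded every High Control mouse, D62 by the smallest margin. The log2 fold change was 0.95 (SE 0.37, adjusted p = 0.358) in Low mice and 0.89 (SE 0.40, adjusted p = 0.956) in High mice. Without D9 the Low value was 0.77, and without D62 the High value was 1.07.

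Psmb9, the inducible counterpart of Psmb6, lies beside Psmb8 in the major histocompatibility complex (chr17:34181987-34187764, minus strand). It was at 2.56, 1.74, 7.08 and 4.13 CPM in Low Control mice D8, D9, D11 and D98, and at 11.7, 9.08, 4.65 and 5.41 CPM in Low Run mice D57, D61, D66 and D68. In High Control mice D23, D25 and D67 it was at 2.97, 2.84 and 3.26 CPM, and in High Run mice D49, D52, D53 and D62 at 4.69, 6.68, 7.72 and 3.75 CPM. As for Psmb8, D11 made the Low groups overlap and the High groups did not overlap. The log2 fold change was 0.99 (SE 0.38, adjusted p = 0.358) in Low mice and 0.92 (SE 0.42, adjusted p = 0.956) in High mice.

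Psmb10, the inducible counterpart of Psmb7, is encoded apart from that complex (chr8:105935735-105938444, minus strand). It averaged 9.73 ± 3.7, 15.8 ± 6.68, 10.7 ± 0.127 and 13.2 ± 4.07 CPM in the same order of groups. Low Run mouse D57, at 25.7 CPM, was far above the other Low Runs, which lay between 10.9 and 13.4 CPM. The log2 fold change was 0.70 (SE 0.31, adjusted p = 0.359) in Low mice and 0.31 (SE 0.33, adjusted p = 0.965) in High mice. The High difference was smaller than its standard error.

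**Figure D4:**
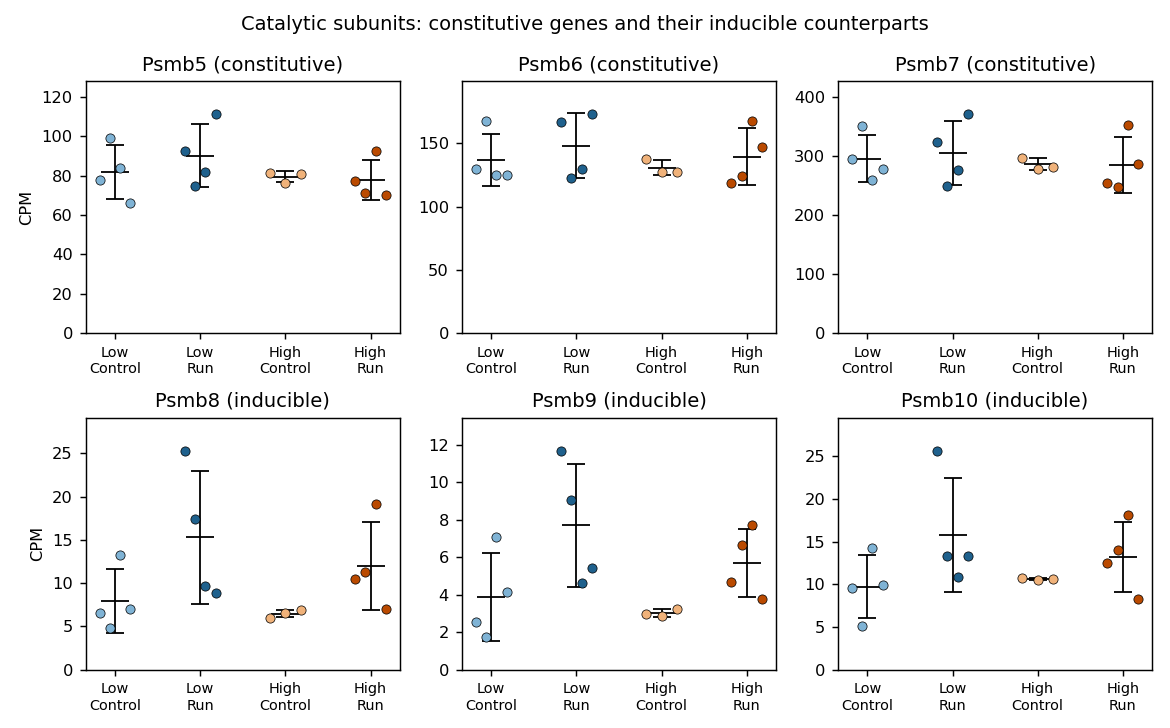
Each point is 1 mouse, in CPM on axes that start at 0, for the constitutive catalytic genes (top) and their inducible counterparts (bottom). Horizontal lines are group means and bars 1 SD. The constitutive groups overlap throughout, while the 4 High Run mice lie above the 3 High Control mice for Psmb8 and Psmb9.

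PA28 is a ring of the products of Psme1 and Psme2 that opens the core without ATP. Psme1 averaged 22.9 ± 5.05, 31.2 ± 10.2, 25.9 ± 2.16 and 27.1 ± 10.7 CPM in the same order of groups, and Psme2 5.38 ± 1.24, 7.41 ± 1.54, 5.68 ± 0.575 and 6.77 ± 1.39 CPM. The groups overlapped for both genes. In Low mice Psme2 was higher after running by a log2 fold change of 0.46 (SE 0.21, adjusted p = 0.362) and Psme1 by 0.45 (SE 0.26, adjusted p = 0.422). In High mice the values were 0.25 (SE 0.22) and 0.06 (SE 0.28). Psme2b, a single-exon gene on chromosome 11, gave 0.57 (SE 0.21, adjusted p = 0.358) in Low mice. Its transcript matches that of Psme2 at 789 of 794 aligned bases (99.4%), so the split of reads between these genes is uncertain.

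Counted as a class, all 5 immunoproteasome genes were higher in Low Run than in Low Control mice, with a median log2 fold change of 0.70 against 0.02 over all genes. An unadjusted p under 0.05 was reached by 4 of them and by 10 of the 48 members, against 13.4% of all genes. Of those 10 members 8 were higher, against 5.92% of all genes, and 2 lower, against 7.52%. Without D57, the highest mouse, the median of the class was 0.365. Without D9 it was 0.48, none of the 5 reached it, and 1 of the 48 members did, against 5.03% of all genes. In the High comparison all 5 were higher with a median of 0.31, which was 0.13 without D53 and 0.47 without D62. Psme1 reached -0.25 under 1 of the alternatives. With all mice, Psmb8 and Psmb9, 2 of the 48 members, reached an unadjusted p under 0.05, against 5.18% of all genes in either direction and 3.28% higher. These were also the 2 of 48 members without overlap between the High groups, against 3.47% of all genes that were higher without overlap. The share of members was therefore close to that of all genes in the High comparison. The interaction was near 0 for Psmb8 (-0.07, SE 0.54) and Psmb9 (-0.08, SE 0.57), intervals too wide to show that the responses were alike. High Control and Low Control mice differed in this class by a median of 0.08, which was -0.08 without D9.

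In single mice the class and the rest of the proteasome moved in opposite or in like directions. D9, highest in the core and cap, was the lowest of the 15 mice in all 5 immunoproteasome genes, at a median of 0.521 times the other mice. D57 was the highest of the 15 in all 5, at a median of 2.37 times the other mice, while its core and cap genes were at a median of 1.12 times. D62, highest of the High Runs in 22 core and cap genes, was the lowest of them in 4 of the 5 immunoproteasome genes. It also lay below every High Control mouse in Psmb10 (8.28 against 10.5 to 10.8 CPM) and Psme1 (19.3 against 23.9 to 28.2 CPM). Averaged over the 5 genes, its log2 CPM relative to each gene's mean was -0.362, against -0.302 to -0.258 in the High Controls. D53 was the highest High Run mouse in all 5, at a median of 1.74 times the other mice, with core and cap genes at 1.17 times. Counts of Psmb8 came to 9.95 ± 4.57% of those of Psmb5 in Low Control, 17.6 ± 9.18% in Low Run, 8.16 ± 0.717% in High Control and 15 ± 4.49% in High Run mice. For Psmb9 against Psmb6 the shares were 2.99 ± 2, 5.28 ± 2.24, 2.31 ± 0.209 and 4.12 ± 1.2%, and for Psmb10 against Psmb7 they were 3.46 ± 1.65, 5.21 ± 1.97, 3.74 ± 0.0945 and 4.66 ± 1.21%. These shares are of counts, not of molecules, since the genes differ in length. The SDs are over the 3 or 4 mice of a group.

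Interferon response motifs were searched in the same windows. The interferon-stimulated response element, searched on both strands, occurred in 3 of 41 members (Psmb3, Psmd4 and Psmd9), or 7.32%, against 3.46% of all genes, and in 0 of the 5 immunoproteasome genes. The gamma-activated sequence, TTCNNNGAA, which reads the same on both strands, occurred in Psmb8 and Psmg1, or 4.88% of members against 8.13% of all genes. The stretch of Psmb8 is shown because this gene gave 1 of the largest running differences, with the match in capitals (RefSeq GRCm38.p6, chr17:34198087-34198116, plus strand). It lies 97 to 89 bases upstream of the RefSeq start and inside an exon that the GENCODE annotation gives to a longer transcript.
Psmb8: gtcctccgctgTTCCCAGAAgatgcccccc
A match describes these letters and not a bound site.

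Genes of antigen presentation and the interferon response were higher after running alongside the immunoproteasome. Of 16 such genes, 15 were higher in Low Run than in Low Control mice (median 0.61) and 15 in High Run than in High Control mice (median 0.66), with an unadjusted p under 0.05 for 7 and 6 of them (5.92% and 3.28% of all genes were higher at that p) and none called at FDR 0.1. Without D9 the Low median was 0.54 and 0 of the 16 reached that p. Tap1, the peptide transporter encoded beside Psmb9, gave 0.88 (SE 0.42) in Low and 1.10 (SE 0.46) in High mice. H2-K1, a class I heavy chain, gave 0.61 (SE 0.26) and 0.68 (SE 0.28), and B2m, its light chain, 0.57 (SE 0.27) and 0.59 (SE 0.29). The Low values of Tap1, H2-K1 and B2m were 0.63, 0.535 and 0.42 without D9.

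Leukocyte markers moved with the same groups. The 12 markers summed to 92.2 to 173 CPM in Low Control, 165 to 219 CPM in Low Run, 87.2 to 123 CPM in High Control and 110 to 237 CPM in High Run mice. With all mice, all 11 that could be tested were higher after running in both comparisons, with medians of 0.63 and 0.83. The Low median was 0.48 without D9. The macrophage genes Lyz2, C1qa and Cd68 gave log2 fold changes of 0.56, 0.63 and 0.35 in Low mice and 0.83, 0.79 and 1.01 in High mice. Csf1r and Adgre1, macrophage genes of the same list, gave 0.07 and 0.225 in Low mice and 0.50 and 0.88 in High mice. Their Low values without D9 were -0.06 and -0.002. D9 and D23 had the lowest sums (92.2 and 87.2 CPM), and D62, the lowest High Run mouse in 4 of the 5 immunoproteasome genes, had the lowest sum of that group (110 CPM). D57, highest of the 15 mice in all 5, and D53, highest High Run mouse in all 5, had sums of 219 and 221 CPM. D11, highest Low Control mouse in 4 of the 5, had the highest sum of its group (173 CPM). Some mice did not line up in this way. D49 had the highest sum of all (237 CPM) but was highest of the High Runs in 0 of the 5 immunoproteasome genes, and D23 was the highest High Control mouse in 3 of the 5. Cd8a, of cytotoxic T cells, was at 0 in 3 mice and at most 1.33 CPM. The part of leukocytes in the immunoproteasome values was not tested, and in bulk muscle more cells of a type and more RNA per cell cannot be told apart.

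The other cell type lists differed less evenly. Sums of the 4 endothelial markers were 156 to 243 CPM over all mice, the 4 fibroblast markers had medians of 0.44 in the Low and -0.02 in the High comparison, and those of the 2 satellite cell markers were 0.11 and 0.00. The 3 adipocyte markers were lower after running in both comparisons (-0.57 and -0.63), and the medians of the 2 Schwann cell markers were -0.17 and 0.56. The 3 erythroid markers were lower in Low Run (-1.19) and higher in High Run mice (2.13), and D53, at 3550 CPM, had the highest sum. The 4 neutrophil markers had positive log2 fold changes in both comparisons (medians 2.24 and 0.62). They summed to 395 CPM in D68, the Low Run mouse highest in the core and cap, against at most 53.6 CPM in any other mouse. The median mouse was at 12.3 CPM in Low Control and 10.4 CPM in Low Run. In the High groups the sums overlapped, at 1.62 to 35.1 CPM in High Control and 2.05 to 51.5 CPM in High Run mice. Medians of the 8 muscle fibre markers were 0.12 and -0.16. The part of these cells in the member levels was not tested.

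Psme4, which encodes the large ATP-independent activator PA200, had the smallest p of the members. It was at 283, 703, 271 and 249 CPM in Low Control mice D8, D9, D11 and D98, and at 171, 224, 229 and 207 CPM in Low Run mice D57, D61, D66 and D68. It was at 257, 260 and 236 CPM in High Control mice D23, D25 and D67, and at 257, 201, 171 and 218 CPM in High Run mice D49, D52, D53 and D62. The Low groups did not overlap, with or without D9, and the High groups did. Psme4 was 1 of 48 members lower without overlap in Low Run mice, against 3.59% of all genes (4.42% without D9). The log2 fold change in Low mice was -0.86 (SE 0.27, adjusted p = 0.358), and -0.37 without D9. In High mice it was -0.24 (SE 0.29, adjusted p = 0.965). Psme4 was thus the 1 member with an unadjusted p under 0.05 in the Low comparison that kept it without D9.

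Psme3, which encodes the nuclear PA28 gamma, and Psmf1, which encodes the inhibitor PI31, differed little. Psme3 averaged 86.6 ± 13.4, 78.5 ± 4.24, 79.3 ± 2.82 and 77.5 ± 1.88 CPM in the same order of groups. Psmf1 averaged 18.5 ± 3.74, 16.8 ± 1.94, 17.2 ± 0.738 and 18.9 ± 4.11 CPM. Their log2 fold changes lay between -0.14 and 0.13 in the running comparisons.

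Most assembly genes were higher after running in Low mice, by values that did not pass the test. Of the 7 genes, 6 were higher in Low Run mice (median 0.37, and 0.26 without D9), and 3 were higher in High Run mice (median -0.00). Psmg1, which pairs with Psmg2 to start the alpha ring, was at 8.64, 5.51, 9.6 and 8.45 CPM in Low Control mice D8, D9, D11 and D98, and at 12.4, 7.86, 11.6 and 15.6 CPM in Low Run mice D57, D61, D66 and D68. D61 alone fell within the Low Control range. The log2 fold change was 0.56 (SE 0.21, adjusted p = 0.358) in Low and -0.02 (SE 0.22, adjusted p = 0.997) in High mice. Psmg2 gave 0.37 (SE 0.17) and -0.12 (SE 0.18). The interaction was -0.58 (SE 0.30, adjusted p = 0.6) for Psmg1 and -0.49 (SE 0.24, adjusted p = 0.6) for Psmg2, so the difference between frailty groups did not pass the test. Both genes were also higher without overlap in High Control than in Low Control mice, by 0.45 (SE 0.22) and 0.36 (SE 0.18), and these were 2 of 48 members against 5.13% of all genes.

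Psmg3, which acts with Psmg4 in the same step, was the 1 member of 48 that was higher without overlap in Low Run mice, against 3.35% of all genes (4.15% without D9). It was at 4.12, 5.75, 6.28 and 6.14 CPM in Low Control mice D8, D9, D11 and D98, and at 6.31, 6.52, 6.52 and 7.47 CPM in Low Run mice D57, D61, D66 and D68. The gap between the groups was small, and the log2 fold change was 0.27 (SE 0.19, adjusted p = 0.491). Psmd10, a chaperone of the cap base, gave 0.39 (SE 0.18, adjusted p = 0.367) in Low mice, and Psmd5, another, -0.17 (SE 0.12). D9 was the lowest of the 15 mice in 4 of the 7 assembly genes and the highest in Psmd5. Psmc3ip, the member that is no subunit, gave 0.61 (SE 0.33) in Low and 0.43 (SE 0.35) in High mice, at a mean of 53.4 counts.

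Of 29 proteasome partners outside the symbol rule, 28 were counted and tested, and 22 were lower in Low Run than in Low Control mice (median -0.29, and -0.08 without D9). In High mice 19 were higher, with a median of 0.10. None was called. Nfe2l1, which encodes a transcription factor that restores proteasome genes when activity falls, was at 1160, 1440, 1080 and 953 CPM in Low Control mice D8, D9, D11 and D98 and at 629, 910, 952 and 807 CPM in Low Run mice D57, D61, D66 and D68. The groups did not overlap, although the values of D98 and D66 lay next to each other, and the log2 fold change was -0.49 (SE 0.18, adjusted p = 0.358). Without D9 it was -0.38, and in High mice it was -0.01 (SE 0.20). Ddi2, the protease that activates its product, was at 240 CPM in D9 and 164 CPM in D62, against 117 CPM or less in all other mice.

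D9 also stood out among genes that respond to protein stress. Zfand2a, which encodes a proteasome-associated zinc finger protein, was 4.55 times the median of the other mice in D9, at 51.9 against 8.7 to 14.4 CPM. Ubb, a polyubiquitin gene, was 2.69 times that median, and D62 was second highest (315 CPM). Pomp, the chaperone that matures the core, was instead low in D9 (63.2 CPM, the lowest of the 15 mice) and higher after running in Low mice by 0.36 (SE 0.14, adjusted p = 0.358). Without D9 its value was 0.265, and 13 of the 14 core genes were higher too.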

How the data were processed

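RNA-seq of polyA RNA from gastrocnemius was deposited as 1 count per gene and mouse. The authors aligned reads to mm10 with STAR 2.7.9a and made the counts with featureCounts against Ensembl annotation 100 (Subread 1.6.2 in the study's methods, 2.0.3 in the submitters' processing notes). A deposited table of variance-stabilized values was not used. Per the study's methods, counting took uniquely aligned proper pairs on 1 strand. Gene symbols, positions and exon lengths came from GENCODE M21 on GRCm38, and 55190 gene IDs had a symbol.

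Counts of all 15 mice were filtered (filterByExpr), TMM-normalized and fitted with edgeR 4.0.16 in R 4.3.3 with 1 mean per group. Contrasts were tested by the quasi-likelihood F-test, two-sided, with Benjamini-Hochberg adjustment over 16920 genes and an FDR of 0.1. CPM were plain values and log2 values used a prior count of 0.5. Alternatives used DESeq2 1.42.0, limma 3.58.1 (voom), other filters, offsets for length and GC content (16901 genes, loess span 0.3) and fits without single mice. Tables were made in Python 3.11.15 with pandas 2.3.3. The edgeR steps were tested on simulated counts with 200 genes changed by a log2 value of 2 in High Run mice. In the High comparison 168 of these and 19 unchanged genes were called. Differences as small as those of the members were not simulated, so their detection was not tested.

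Members and lists were chosen with earlier results of these data known, so their direction is not independent evidence. Named with values were the catalytic pairs, activators and inhibitor, the 5 members with the smallest p in each comparison, members without overlap, the extremes of level per length, and cap subunits given a role. Partner, presentation and marker genes named with values were chosen after their values were seen. The labels give no batch. Each p measures the spread between mice, and library depth limits the precision of the lowest members. Promoter sequences came from RefSeq (GRCm38.p6). Some genes of these lists are not reported here.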

Additional observations from a re-analysis of the deposited data

Results flagged for a closer look

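In each member and each group of 4 mice, the gap between the most extreme mouse and its nearest neighbour was compared with the whole range of the group by Dixon's test. Of 144 groups tested, 16 passed its 95% critical value. Chance flags about 1 in 20 groups, and members that vary together from mouse to mouse are not independent.

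Low Control mouse D9 gave 12 of the 16. It lay far above the other Low Controls in the core genes Psma1 (171 CPM), Psma4 (114 CPM), Psma7 (215 CPM) and Psmb6 (168 CPM). The same held in the cap genes Psmc6 (248 CPM), Psmd1 (410 CPM), Psmd3 (382 CPM), Psmd6 (233 CPM), Psmd11 (410 CPM) and Psmd14 (99.6 CPM), and in the activator Psme4 (703 CPM). In the assembly gene Psmg4 it lay far below them, at 3.19 CPM.

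The remaining 4 came from running mice. Psmd3 was at 210 CPM in Low Run mouse D68 and Psmb10 at 25.7 CPM in Low Run mouse D57. Psmd11 was at 190 CPM in High Run mouse D62, and Psmd14 at 84.6 CPM in High Run mouse D53, each far above the other mice of its group. High Control mice were too few for this test.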

How the results depend on the processing

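Of the alternative values, 960 moved by less than the spread between mice, or for counts by at most 1.5 times, or stayed on their side of the threshold, and 40 moved further. No member was called at FDR 0.1 under any of them, so a change of sign is that of an uncalled value. Of 336 class medians under alternatives, 32 changed sign, among them the Low medians of core and cap without D9 (0.112 and 0.0051) and the High medians of core and cap with voom. No paired analysis was possible because each mouse belongs to 1 group and no replicate number is shared in the labels. The count of members at an unadjusted p under 0.05 moved most. In the Low comparison (10) it was 6 with only the 2 groups compared, 2 with voom, 5 with length and GC offsets and 4 without D9 and D62. Leaving out 1 mouse at a time gave 1 to 11, with 1 without D9 and 2 without D57. In the High comparison (2) it was 1 with length and GC offsets and 0 to 2 without single mice, being 0 without D23, D25, D67, D52 or D53 and 1 without D49. For the interaction (0) it was 3 with no filter on low counts, 1 with voom and 0 to 3 without single mice, being 3 without D11, D98 or D53, 2 without D61 and 1 without D68. For High Control against Low Control (1) it was 2 with DESeq2, voom or the offsets, 4 with no filter, 0 with only the 2 groups or without D9 and D62, and 0 to 9 without single mice (0 without D9, D25 or D67, 3 without D8, 5 without D11, 9 without D98 and 2 without D23). Between the running groups it was 0 to 1, being 1 without D53. With voom the Low assembly median was 0.181 and the interaction median of the cap 0.0295. Without D9 and D62 the interaction medians were -0.0422 in the core and -0.0395 in the cap. Transcript length, which moved the span of levels to 19.1-fold in the core and 3.77-fold in the cap, and overlap without D9 were chosen after seeing the data.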
